A study of Mus musculus with 9 samples.

Results

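Eya4 and 7 protein-coding genes about which little is known (Ccdc187, Ccdc54, Ccdc91, Lrrc57, 1700034I23Rik, 1700016H13Rik and 4930412O13Rik) were followed through whole testes of 3 Kpna6 genotypes. These 8 of 32035 measured genes were selected on their lower level in Kpna6 ΔIBB/ΔIBB testes, so that their fall in this genotype is described here without a test. RNA was sequenced from 3 wild-type (WT), 3 Kpna6 ΔIBB/ΔIBB and 3 Kpna6-/- testes of male mice aged 15 weeks, all on the C57Bl6/N background. Kpna6, also called importin α7, is an adaptor that carries proteins with a nuclear localization signal into the nucleus together with karyopherin β. In the ΔIBB line the second exon was replaced, and a shortened mRNA gave a truncated protein without the domain that binds karyopherin β. In the Kpna6-/- line a gene trap sat in the first intron. An alternative testis-specific first exon still gave full-length protein in its germ cells but not in its Sertoli cells, which limits this line as a model of complete loss. Males of the ΔIBB line were sterile and males of the Kpna6-/- line were fertile, by the description of the study.

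Most of the 8 genes have no settled function. EYA proteins are protein phosphatases that act as transcriptional coactivators, since they do not bind DNA themselves and are brought to their target genes by DNA-binding partners. Eya4 is best known for its roles in the inner ear and the heart. Ccdc91 encodes a coiled-coil partner of the GGA adaptors, which sort cargo from the trans-Golgi network into clathrin-coated vesicles. The names Ccdc and Lrrc denote a coiled-coil domain and leucine-rich repeats and say nothing of a role, and the 3 RIKEN names are those of cDNA clones. A testis is a mixture in which spermatogonia, spermatocytes and spermatids lie between Sertoli cells, and round and elongating spermatids supply much of its RNA.

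The 8 genes lie on 6 chromosomes of GRCm38. Eya4 spans chr10:23102963-23350786 on the minus strand. Ccdc187 (chr2:26243469-26294557, minus), Lrrc57 (chr2:120604238-120609520, minus) and 4930412O13Rik (chr2:9881252-9883921, plus) share chromosome 2 but lie far apart. Ccdc54 (chr16:50589857-50591154, minus) and 1700034I23Rik (chr3:40900196-40902543, minus) each consist of 1 exon. Ccdc91 is at chr6:147475828-147632612 on the plus strand and 1700016H13Rik at chr5:103648039-103656010 on the minus strand.

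RefSeq gave 13 promoter windows for the 8 genes, each reaching from 250 bases before to 50 bases after a transcript start. They were searched on both strands for motifs of factors that act in spermatocytes and spermatids, and 4 windows are printed below because they differ in which of these motifs they hold. Capitals mark the motif letters, and each sequence reads 5′ to 3′ on the strand of its gene. The 4930412O13Rik window is chr2:9880996-9881295 (plus), the Lrrc57 window chr2:120609266-120609565 (minus), the Ccdc54 window chr16:50591105-50591404 (minus) and the Eya4 window chr10:23349841-23350140 (minus), all in GRCm38.p6.
4930412O13Rik: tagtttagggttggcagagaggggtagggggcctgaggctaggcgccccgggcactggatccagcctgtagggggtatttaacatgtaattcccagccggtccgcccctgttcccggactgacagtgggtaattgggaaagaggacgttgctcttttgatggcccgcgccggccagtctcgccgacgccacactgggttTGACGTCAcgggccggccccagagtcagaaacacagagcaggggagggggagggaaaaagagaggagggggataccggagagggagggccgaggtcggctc
Lrrc57: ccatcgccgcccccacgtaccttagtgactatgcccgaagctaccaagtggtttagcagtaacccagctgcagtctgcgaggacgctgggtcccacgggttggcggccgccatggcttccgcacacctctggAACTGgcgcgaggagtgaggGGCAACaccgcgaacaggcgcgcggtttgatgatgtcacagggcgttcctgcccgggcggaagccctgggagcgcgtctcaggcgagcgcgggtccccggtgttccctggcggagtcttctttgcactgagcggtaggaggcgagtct
Ccdc54: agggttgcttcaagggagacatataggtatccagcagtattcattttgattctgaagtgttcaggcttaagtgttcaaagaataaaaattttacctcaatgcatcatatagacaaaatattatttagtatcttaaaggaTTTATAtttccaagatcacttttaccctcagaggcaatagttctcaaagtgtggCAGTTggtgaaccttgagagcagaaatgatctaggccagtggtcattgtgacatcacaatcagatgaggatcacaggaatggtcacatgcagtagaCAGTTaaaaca
Eya4: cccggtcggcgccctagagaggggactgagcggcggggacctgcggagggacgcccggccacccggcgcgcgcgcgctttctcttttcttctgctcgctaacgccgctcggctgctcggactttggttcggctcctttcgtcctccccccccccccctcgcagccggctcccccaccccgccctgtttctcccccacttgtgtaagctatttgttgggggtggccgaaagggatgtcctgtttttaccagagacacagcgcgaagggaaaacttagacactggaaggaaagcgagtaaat

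The full cAMP response element, TGACGTCA, to which the spermatid activator CREM binds, stood in 1 of the 8 genes, 4930412O13Rik. This was 1 of the 13 windows, beside 1.79% of all 32851 promoter windows. The shorter TGACGT lies within that same element, was found in no other of the 8 genes and occurred in 7.51% of all windows. The X-box core GTTGCC, read by RFX factors, was found in Lrrc57, where it appears as its reverse complement, and in Ccdc91. It stood in 3 of the 13 windows, against 12.51% of all windows, and not in every window of these 2 genes. The 2 Lrrc57 windows that hold it overlap and hold the same site. TATAAA was found in Ccdc54 and 1700034I23Rik, in both on the opposite strand, so in 2 of 13 windows against 13.62% of all. The short MYB core AACTG occurred in Ccdc54, Lrrc57 and 1700034I23Rik, in 4 of 13 windows against 44.8% of all. The same Lrrc57 site is again counted in 2 overlapping windows. None of these letters stood in the windows of Eya4, Ccdc187 and 1700016H13Rik. The 2 overlapping Eya4 windows held 28 and 36 CpG dinucleotides, that of Ccdc54 held 0, and the median over all windows was 7. No single motif was thus common to the 8 starts.

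The files held between 24859751 and 31484692 estimated counts on genes in a testis. Kpna6 itself served as the check of the labels. Levels are given in TPM, the estimated reads divided by transcript length and scaled to the library. Kpna6 was at 98.3, 163 and 176 TPM in WT, 31.96, 34.2 and 34.8 TPM in Kpna6 ΔIBB/ΔIBB and 134, 137 and 141 TPM in Kpna6-/- testes. It was therefore lowest in the line with the shortened mRNA, with a log2 fold change against WT of -1.79 ± 0.15 (SE, adjusted p = 1.94e-05), and overlapped between Kpna6-/- and WT (-0.18 ± 0.14, adjusted p = 0.586). Elongating spermatid markers summed to between 60240 and 82270 TPM, as the tissue label requires. WT replicate 1 stood apart by its low Kpna6. Kpna6 ΔIBB/ΔIBB replicate 3 stood apart by 2 transcripts of the epididymis, the duct that receives sperm from the testis. Spink8 was at 81.3 TPM and Crisp1 at 77.0 TPM in it, against at most 10.7 and 4.23 TPM in the 8 other testes, while Lcn5 was listed at 0 in all 9 testes and Lcn8 and Lcn9 reached at most 0.52 TPM. The 8 epididymis markers summed to 164.1 TPM in that testis, 9.4 and 16.7 TPM in the other two of its group, 6.1 to 8.0 TPM in WT and 7.6 to 19.3 TPM in Kpna6-/-. Their part in the levels below was not tested, but the fold change of each of the 8 genes against WT is also given without that testis.

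In Kpna6 ΔIBB/ΔIBB testes all 8 genes were lower than in every WT and every Kpna6-/- testis. Among 18797 genes tested, 8.53% lay in this way below all 6 other testes and 13.6% below the 3 WT testes, and nothing is read from the count of 8 since it is what the selection used. Going by fold changes of TMM-scaled counts, between 42.9% and 66.4% of the WT level remained. In whole tissue, fewer cells of a type and less RNA per cell cannot be told apart.

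Eya4 had the largest fold change of the 8. It was present at 28.5, 25.6 and 28.1 TPM in WT, 12.6, 13.02 and 12.7 TPM in Kpna6 ΔIBB/ΔIBB and 24.3, 24.4 and 25.1 TPM in Kpna6-/- testes. The ΔIBB values were close together and far below the rest, and all 3 Kpna6-/- values lay just below the lowest WT value. The log2 fold change of Kpna6 ΔIBB/ΔIBB against WT was -1.22 ± 0.05 (SE, from edgeR on scaled counts), so that 42.9% remained, and it was -1.22 again without replicate 3 of the mutant. It ranked 134th from the lowest of all genes tested.

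4930412O13Rik and Ccdc187 also lost more than a log2 unit with TMM-scaled counts. Their fold changes were -0.98 and -0.96 with library size alone and -0.97 and -1.04 with length-scaled counts. With limma on log2(TPM + 1) they were -0.84 and -0.91. For 4930412O13Rik the levels were 100, 118 and 138 TPM in WT, 68.2, 64.5 and 63.4 TPM in Kpna6 ΔIBB/ΔIBB and 130, 126 and 117 TPM in Kpna6-/- testes. WT testes spread most here, with an SD of 18.8 TPM, yet the lowest WT value still exceeded the highest ΔIBB value. Its log2 fold change against WT was -1.08 ± 0.08 (SE), or -1.05 without ΔIBB replicate 3. Ccdc187 was at 58.2, 56.7 and 62.6 TPM in WT, 32.03, 32.3 and 28.8 TPM in Kpna6 ΔIBB/ΔIBB and 58.3, 58.1 and 55.7 TPM in Kpna6-/- testes. WT and Kpna6-/- values intermingled, and the ΔIBB values formed a group of their own. The log2 fold change was -1.05 ± 0.05 (SE), or -1.01 without ΔIBB replicate 3. Over all genes tested, 1.3% had a log2 fold change of -1 or lower in this comparison.

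Lrrc57 lay between these 3 genes and the other 4. Its level was 216, 217 and 202 TPM in WT, 137, 139 and 122 TPM in Kpna6 ΔIBB/ΔIBB and 220, 223 and 213 TPM in Kpna6-/- testes. The 2 groups other than ΔIBB overlapped, and ΔIBB replicate 3 was the lowest testis for this gene. The log2 fold change against WT was -0.79 ± 0.06 (SE), or -0.74 without that testis.

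The other 4 genes were abundant and kept about the same share of their WT level. 1700034I23Rik was at 265, 278 and 282 TPM in WT, 187, 186 and 182 TPM in Kpna6 ΔIBB/ΔIBB and 262, 270 and 269 TPM in Kpna6-/- testes (log2 fold change -0.69 ± 0.04 against WT, or 61.8% remaining). 1700016H13Rik was at 466, 457 and 466 TPM in WT, 327, 323 and 301 TPM in Kpna6 ΔIBB/ΔIBB and 459, 464 and 460 TPM in Kpna6-/- testes (-0.69 ± 0.04, 61.9% remaining). Both showed one low and one high group of testes with nothing in between. Ccdc54 was at 353, 351 and 356 TPM in WT, 253, 255 and 253 TPM in Kpna6 ΔIBB/ΔIBB and 345, 360 and 351 TPM in Kpna6-/- testes (-0.60 ± 0.03, 65.9% remaining). Its SD of 1.04 TPM within the ΔIBB group was the smallest relative to the mean among the 8 genes in that group. Ccdc91, the GGA partner, was at 492, 505 and 491 TPM in WT, 358, 361 and 350 TPM in Kpna6 ΔIBB/ΔIBB and 502, 492 and 476 TPM in Kpna6-/- testes (-0.59 ± 0.03, 66.4% remaining). Without ΔIBB replicate 3 the fold changes of these 4 genes lay between -0.57 and -0.69.

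**Figure D1:**
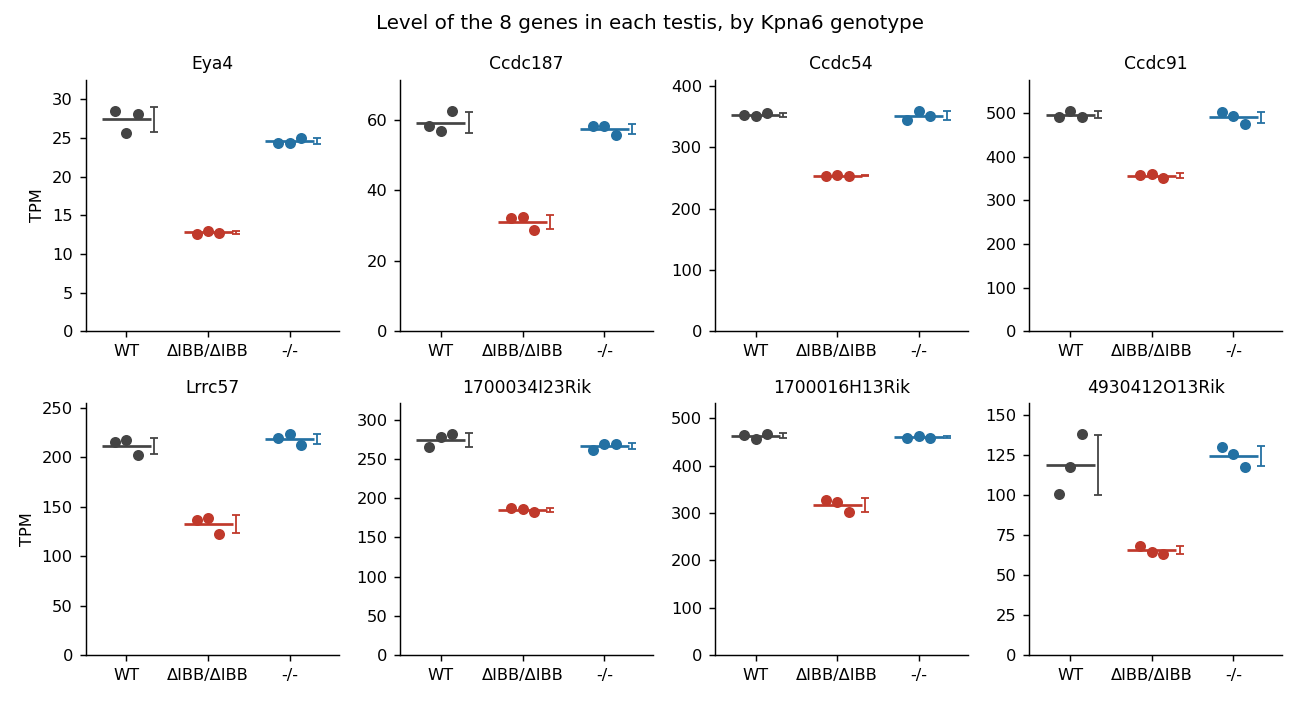
TPM (y axis, from 0) of each of the 8 genes in each of the 9 testes, by genotype (x axis: WT, Kpna6 ΔIBB/ΔIBB, Kpna6-/-; points are testes, horizontal lines group means, bars ± 1 SD, n = 3). In each panel the 3 ΔIBB testes lie below the other 6, and only for Eya4 do the Kpna6-/- testes, at 24.3 to 25.1 TPM, lie wholly below WT.

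On the TPM scale, which allows levels of different genes to be compared, the order in WT was Ccdc91 (496 ± 8.0 TPM, SD, n = 3), 1700016H13Rik (463 ± 5.4), Ccdc54 (353 ± 3.0), 1700034I23Rik (275 ± 8.8), Lrrc57 (212 ± 8.4), 4930412O13Rik (119 ± 18.8), Ccdc187 (59.1 ± 3.1) and Eya4 (27.4 ± 1.6). Both mutant lines kept this order. No 2 neighbours in it overlapped among the WT testes or among the ΔIBB testes. The smallest estimated count behind any of these values was 772, for 4930412O13Rik in ΔIBB replicate 1, and the largest 15408, for Ccdc91 in WT replicate 2.

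Kpna6-/- against WT is the comparison in which the 8 genes could be tested, because it does not contain the ΔIBB testes, although it shares the WT testes with the selection. By edgeR's quasi-likelihood test with Benjamini-Hochberg adjustment over 18681 genes, 0 of the 8 genes passed, and DESeq2 also called 0. Of all genes tested, 0.712% were called lower and 0.889% higher. The adjusted p-values ranged from 0.183 to 0.998, and 4 genes lay below and 4 above WT with a median log2 fold change of -0.004. One gene, Eya4, had a p below the threshold without adjustment, a level that 14.9% of all genes reached, and 7.08% of all genes reached it with a lower value. Its log2 fold change was -0.15 ± 0.05 (SE, adjusted p = 0.183), equal to 90.2% of WT, and 10.2% of all genes had 3 Kpna6-/- values below all WT values as it did. Of the others, Lrrc57 differed most (0.07 ± 0.05, adjusted p = 0.545) and Ccdc91 least (0.00 ± 0.03, adjusted p = 0.998). For the 7 genes other than Eya4 the ranges of the 2 groups overlapped. These tests leave room for differences of several times their standard errors, which ran from 0.03 to 0.08. Eya4, at -0.15 ± 0.05, was itself not called.

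Kpna6 ΔIBB/ΔIBB against Kpna6-/- shares the mutant testes with the selection and is therefore again given as values. The log2 fold changes were -1.15 ± 0.05 (SE) for 4930412O13Rik, -1.08 ± 0.05 for Eya4, -1.03 ± 0.05 for Ccdc187 and -0.87 ± 0.04 for Lrrc57. They lay between -0.69 and -0.60 for the other 4 genes. The median was -0.78, beside -0.74 against WT. The median over all genes tested was 0.005 and 0.009, respectively. In this comparison 16.8% of the genes tested were called lower and 13.5% higher. The plot of fold changes shows 4930412O13Rik, and not Eya4, as the most reduced gene against Kpna6-/-, since its mean was slightly higher and that of Eya4 slightly lower in Kpna6-/- than in WT.

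**Figure D2:**
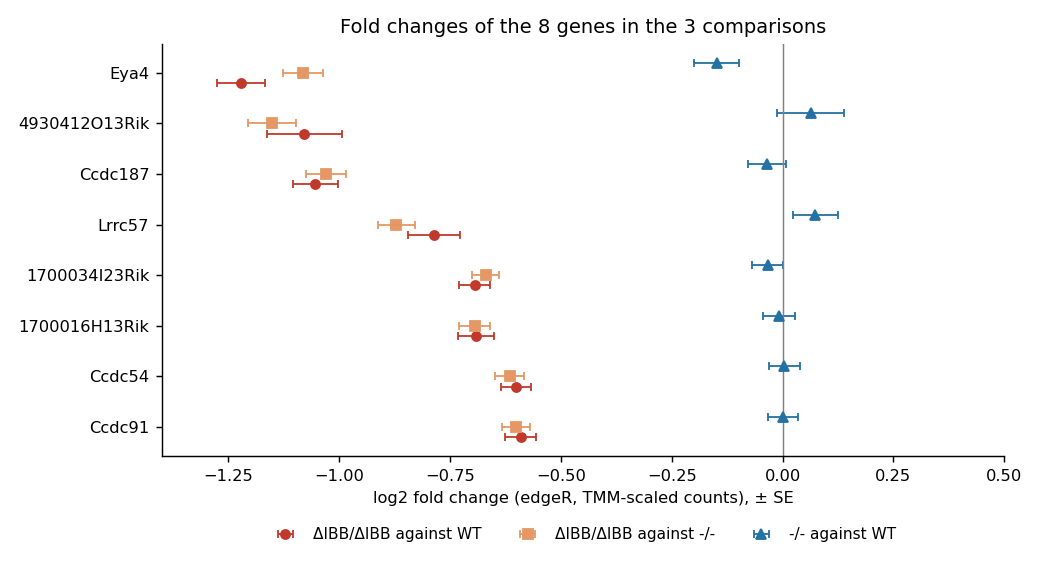
Log2 fold change (x axis; edgeR on TMM-scaled counts, error bars ± 1 SE, 3 testes against 3) of each of the 8 genes (y axis) in the 3 comparisons of genotypes. Both comparisons with Kpna6 ΔIBB/ΔIBB lie between -1.22 and -0.59 and share the same mutant testes, and Kpna6-/- against WT lies between -0.15 and 0.07.

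The loss of these genes was set beside markers of the cell types of the testis. Against WT, all 12 round spermatid markers and all 12 elongating spermatid markers fell in Kpna6 ΔIBB/ΔIBB testes, where 18.9% of all genes tested were called lower and 17.7% higher. Their log2 fold changes had a median of -0.38 and ran from -0.72 for Catsper3, a subunit of the sperm calcium channel, to -0.10 for Dkkl1. Among them Tnp1, a transition protein that replaces histones, fell by 0.59 on the log2 scale (adjusted p = 0.00016) and Acrv1, an acrosomal protein, by 0.58 (adjusted p = 6.4e-05). All 8 genes lay below the median of these 24 markers, and 4 of them, Eya4, 4930412O13Rik, Ccdc187 and Lrrc57, lay below the lowest. Nothing is read from this, since the 8 were selected on their fall in ΔIBB testes and the markers were not. For earlier germ cells the calls were fewer. Of 10 pachytene spermatocyte markers 3 fell and 0 rose, of 10 leptotene to zygotene markers 3 fell and 2 rose, and of 10 spermatogonium markers 5 rose and 1 fell. With scaling by library size alone the pachytene markers gave 1 lower and 1 higher and the leptotene to zygotene markers 0 lower and 3 higher. Without ΔIBB replicate 3 the leptotene to zygotene markers gave 1 lower and 3 higher, and 3 spermatogonium markers were higher. Sertoli cell markers rose in 11 of 12 cases with a median of 0.58, among them Amhr2, the receptor of anti-Müllerian hormone (0.83 ± 0.05, adjusted p = 6.61e-06), while 1 of them, Tjp1, fell, a call that was lost with library size alone, with length-scaled counts and without WT replicate 1 or 2 or ΔIBB replicate 1 or 3, and whose sign turned with limma on log2(TPM + 1). Their summed level was 1193 to 1288 TPM in WT, 1874 to 2252 TPM in ΔIBB and 1413 to 1499 TPM in Kpna6-/- testes. These levels are shares of the RNA of a testis and do not count cells. The paper counted fewer Sertoli cells per tubule in adults of both mutant lines. Its quantitative PCR, scaled to Gapdh, found no significant change of Rhox5, Wt1, clusterin (Clu) or Cldn11, which are among these 12 markers. Of the Leydig cell markers 3 of 10 rose, of the macrophage markers 3 of 8 and of the 4 epididymis markers that could be tested 2, with 0 falling in each, and of 8 peritubular and endothelial markers 3 rose and 1 fell. With single testes left out, 1 to 3 Leydig, 1 to 6 macrophage and 0 to 2 epididymis markers rose, and 2 Leydig markers fell without WT replicate 2. Against Kpna6-/- the same 24 spermatid markers were all called lower in the ΔIBB line. In Kpna6-/- testes 0 of the 24 spermatid markers were called against WT, and 3 of 12 Sertoli cell markers rose. What part the makeup of the tissue has in the fall of the 8 genes was not tested.

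**Figure D3:**
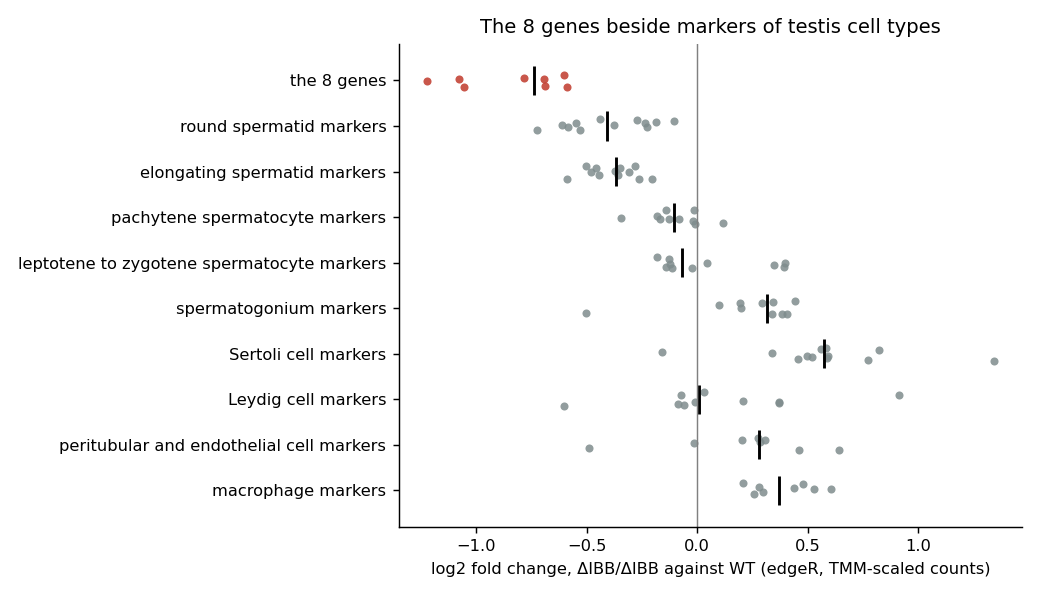
Log2 fold change of Kpna6 ΔIBB/ΔIBB against WT (x axis; edgeR on TMM-scaled counts) of the 8 genes (red) and of the tested markers of 9 testis cell types (grey), each point a gene and each vertical line the median of its row. The 8 genes have a median of -0.74, round and elongating spermatid markers medians of -0.41 and -0.37, and Sertoli cell markers a median of 0.58. Only the 8 were selected on their fall in ΔIBB testes.

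Dividing the TPM of each gene by the summed TPM of the 12 round spermatid markers in the same testis sets its level beside theirs. The summed markers themselves were at 89.4% of WT in Kpna6 ΔIBB/ΔIBB testes, with 4132 to 4324 TPM in WT and 3685 to 3861 TPM in the mutant. Relative to this sum, Eya4 was at 52.2% of its WT ratio, Ccdc187 at 58.8%, 4930412O13Rik at 61.8% and Lrrc57 at 70.2%. 1700034I23Rik kept 75.4%, 1700016H13Rik 76.7%, and Ccdc54 and Ccdc91 80.4% each. Dkkl1, which had the smallest fold change of the 12, held 29.4% of the sum in WT and 33.4% in ΔIBB testes. With Dkkl1 left out, an alternative chosen after seeing the data, the sum was at 84.3% of WT and the ratios ran from 55.3% for Eya4 to 85.2% for Ccdc91. Single markers had fold changes like those of the least reduced genes, with -0.72 for Catsper3, -0.61 for Izumo1 and -0.58 for Acrv1 beside -0.60 for Ccdc54 and -0.59 for Ccdc91. In Kpna6-/- testes the ratios lay between 91.6% of WT for Eya4 and 107% for 4930412O13Rik.

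**Figure D4:**
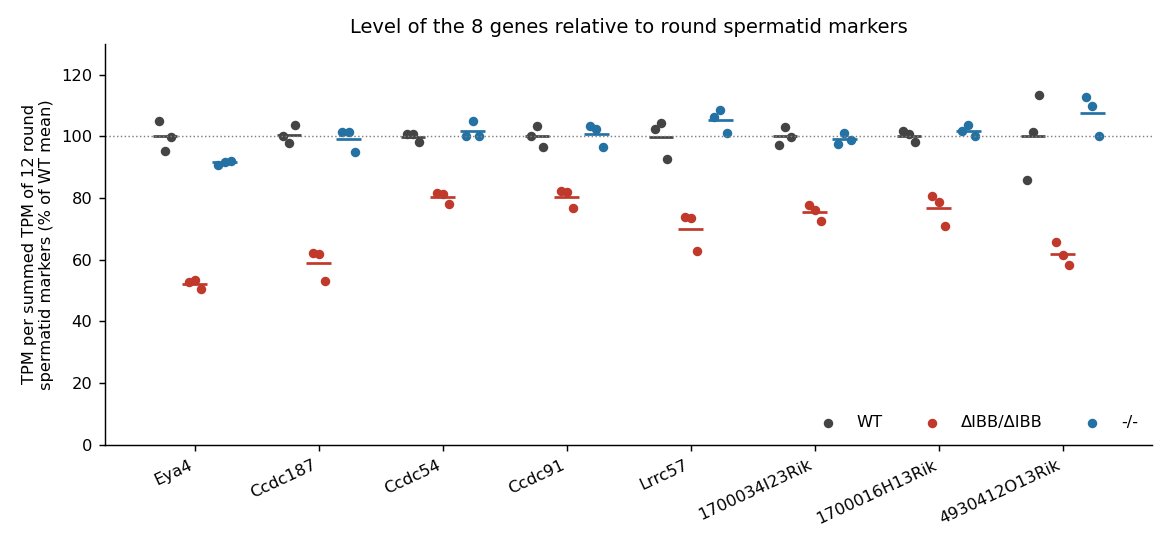
TPM of each of the 8 genes (x axis) divided by the summed TPM of 12 round spermatid markers in the same testis, in percent of the WT mean (y axis, from 0; points are testes, short lines group means, n = 3 per genotype). The ΔIBB means run from 52.2% for Eya4 to 80.4% for Ccdc54 and Ccdc91, and the Kpna6-/- means from 91.6% to 107%.

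Transcript-level values showed which isoforms carried these levels. Ccdc187, Ccdc54 and 1700034I23Rik have 1 transcript each in the files. Eya4-201, with 19 exons, held 96.3% ± 0.6 (SD, n = 3) of the Eya4 TPM in WT testes. It held 95.1% ± 1.0 in the ΔIBB line and 96.9% ± 0.3 in the Kpna6-/- line. Of the Ccdc91 level, 59.6% ± 1.0 in WT and 58.8% ± 1.1 in ΔIBB testes came from Ccdc91-202, a transcript of 838 bases that is annotated as processed and not as coding. The longer coding form Ccdc91-201 held 40.0% ± 1.1 in WT and 40.6% ± 1.0 in ΔIBB testes. Both forms kept nearly the same share of their WT level, 73.0% for the coding and 71.0% for the processed form. Shares of the WT level of single transcripts are ratios of mean TPM. They are not on the scale of the percentages remaining given above for whole genes, which rest on TMM-scaled counts. The 7 transcripts of 1700016H13Rik divided its level, with 1700016H13Rik-203 leading at 26.2% ± 0.1 in WT and 28.1% ± 2.6 in ΔIBB testes.

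The mean levels of single transcripts in ΔIBB testes kept different shares of WT in several genes, from 58.3% to 75.2% for the 7 transcripts of 1700016H13Rik, and no test was made of these differences. Lrrc57-204 was at 53.0 ± 4.7 TPM in WT and 26.9 ± 1.2 TPM in ΔIBB testes (SD, n = 3) and Lrrc57-205 at 144 ± 1.7 and 88.2 ± 6.7 TPM, whereas Lrrc57-201 was at 7.78 ± 5.0 TPM in WT and 13.1 ± 4.9 TPM in ΔIBB testes, with overlapping ranges. In 4930412O13Rik the 5-exon form 4930412O13Rik-201 held 52.2% ± 3.2 of the level in WT and 45.8% ± 1.7 in ΔIBB testes, and the 2-exon form 4930412O13Rik-202 the rest. In mean TPM they kept 48.6% and 62.1% of their WT levels, while the whole gene went from 119 to 65.4 TPM. These shares in ΔIBB testes are descriptions. Between Kpna6-/- and WT the share of the leading transcript was compared for the 5 genes with more than 1 transcript by a two-sided exact permutation test. The differences ran from -1.31 to 0.56 percentage points, with p from 0.2 to 0.8 (0.625 to 0.8 after Benjamini-Hochberg adjustment over 5 tests), where 20 splits of the testes allow no p below 0.1.

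The surroundings of the 8 genes were examined through the 2 nearest tested genes on each side. Of these 32 neighbours, 7 fell and 8 rose in Kpna6 ΔIBB/ΔIBB against WT, where 18.9% of all genes fell and 17.7% rose, and their median log2 fold change was -0.05. Near Eya4, Tcf21 and Slc18b1 rose (0.53 ± 0.16, adjusted p = 0.0205, and 0.68 ± 0.13, adjusted p = 0.00197), while Tbpl1 (-0.06, adjusted p = 0.284) and Vnn3 (-0.39, adjusted p = 0.437) did not pass. Both neighbours of Ccdc91 that passed on one side rose, Klhl42 (0.63 ± 0.12, adjusted p = 0.00157) and Mansc4 (1.40 ± 0.41, adjusted p = 0.02), and Ergic2 on the other side fell (-0.33 ± 0.04, adjusted p = 6.97e-05).

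In 3 neighbourhoods a gene fell about as much in counts as the one it flanks, or shares sequence with it. No strand setting is stated for the counting, so reads of overlapping genes cannot be told apart. 9230102O04Rik overlaps 4930412O13Rik on the opposite strand and matches it over 288 bases. It fell from 79.0 ± 6.0 to 37.8 ± 3.3 TPM (log2 fold change -1.19 ± 0.10, adjusted p = 1.71e-05), and Gata3, whose annotated span also overlaps, fell by 0.58 ± 0.18 (adjusted p = 0.0277) at 1.87 TPM in WT. With the counts of 9230102O04Rik added, 4930412O13Rik had a log2 fold change of -1.10. Stard9, the second gene beyond Lrrc57, fell by 0.86 ± 0.07 in counts (adjusted p = 1.61e-05). In TPM it fell less, from 26.1 ± 1.4 in WT to 22.9 ± 2.8 in ΔIBB testes (SD), with overlapping ranges. Lrrc57 went from 212 ± 8.4 to 133 ± 8.9 TPM. Stard9 counts were also lower in Kpna6-/- than in WT (-0.20 ± 0.04, adjusted p = 0.0293), where Lrrc57 was not called. Haus2, which shares 138 bases with Lrrc57 on the opposite strand, had a log2 fold change of -0.17 ± 0.09 (adjusted p = 0.141), and the sum of both genes one of -0.72. Gm10731 is identical to 1700034I23Rik over 448 bases and fell by 0.51 ± 0.14 (adjusted p = 0.0133), and their sum stayed at -0.69. The division of reads between the members of these pairs is uncertain.

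**Figure D5:**
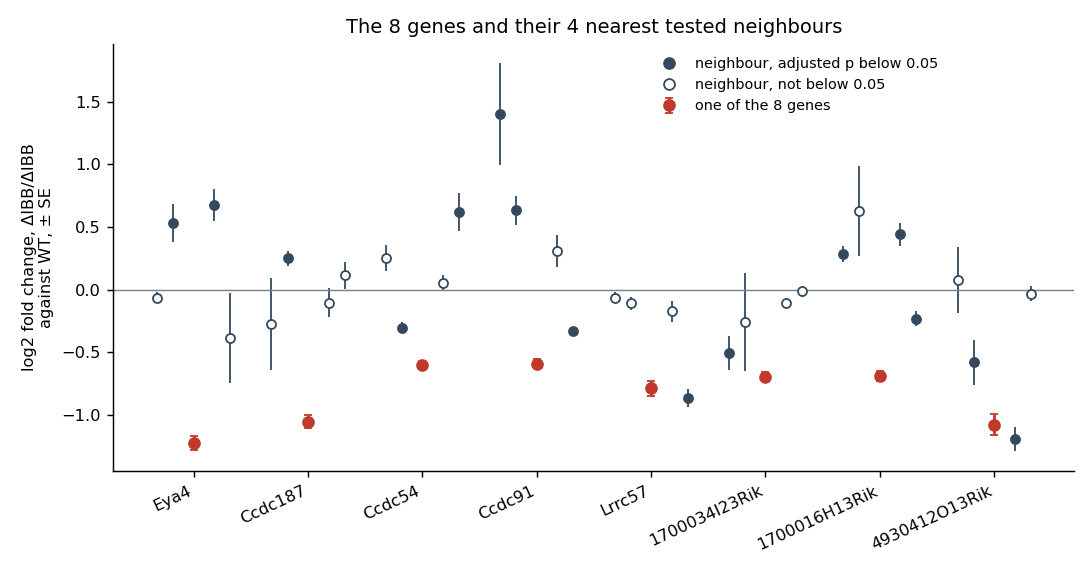
Log2 fold change of Kpna6 ΔIBB/ΔIBB against WT (y axis, error bars ± 1 SE, 3 testes against 3) of each of the 8 genes (red) and of the 2 nearest tested genes on each side of it (dark, in chromosomal order from left to right; filled where the adjusted p was below 0.05). Of the 32 neighbours 7 fell and 8 rose. Only Stard9 beside Lrrc57 and 9230102O04Rik beside 4930412O13Rik fell by more in counts than the gene they flank. In TPM the ranges of Stard9 in ΔIBB and WT testes overlapped.

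Of the 3 other Eya genes, 1 fell and 0 rose in Kpna6 ΔIBB/ΔIBB against WT. Eya3, the most abundant of them at 36.4 ± 1.5 TPM in WT, fell by 0.21 ± 0.05 on the log2 scale (adjusted p = 0.00614), and it did not pass with scaling by library size alone or with limma on log2(TPM + 1). Eya1 (-0.16 ± 0.21, adjusted p = 0.574) and Eya2 (-0.66 ± 0.34, adjusted p = 0.148) were low in WT testes, at 1.76 and 1.44 TPM. In TPM, however, both lay lower in ΔIBB than in every WT testis. Eya1 was at 1.23 to 2.27 TPM in WT, 0.804 to 1.06 in ΔIBB and 0.569 to 1.28 in Kpna6-/- testes. Eya2 was at 1.26 to 1.78, 0.248 to 0.914 and 0.549 to 0.768 TPM, in the same order. With limma on log2(TPM + 1) neither was called lower in ΔIBB testes. Dach1, a transcriptional cofactor that acts with EYA proteins, was at 0.511 ± 0.026 TPM in WT and had a log2 fold change of 0.18 ± 0.22 (adjusted p = 0.553). Six5, a homeodomain factor, rose by 0.42 ± 0.14 (adjusted p = 0.0344) from 1.85 ± 0.12 TPM, and did not pass with DESeq2, with length-scaled counts, with limma on log2(TPM + 1) or log2(TPM + 0.1), or without WT replicate 2 or 3 or ΔIBB replicate 1 or 2. In Kpna6-/- against WT none of Eya1, Eya2, Eya3, Dach1 and Six5 was called, with adjusted p-values from 0.527 to 0.986.

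Of the 22 other genes of the GGA and AP-1 coat, with which Ccdc91 acts at the trans-Golgi network, 6 rose and 1 fell in Kpna6 ΔIBB/ΔIBB against WT, where 17.7% of all genes rose and 18.9% fell. Only 3 rose without WT replicate 2 or without ΔIBB replicate 2. With scaling by library size alone 14 rose and 0 fell, where 5416 of all 18797 genes tested rose. The clathrin light chains Clta (0.55 ± 0.07, adjusted p = 0.000208) and Cltb (0.53 ± 0.07, adjusted p = 0.000131) and the small GTPase Arf3 (0.45 ± 0.05, adjusted p = 6.97e-05) rose most. Aftph, a clathrin accessory protein, fell by 0.19 ± 0.05 (adjusted p = 0.0103), and did not pass with library size alone or with length-scaled counts, while its sign turned with limma on log2(TPM + 1). The 3 adaptors that Ccdc91 binds had log2 fold changes of 0.07 ± 0.06 for Gga1, 0.02 ± 0.07 for Gga2 and -0.24 ± 0.10 for Gga3, with adjusted p-values of 0.328, 0.853 and 0.0762. In Kpna6-/- against WT 0 of the 22 were called.

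Genes that share only a naming scheme with the 8 were counted as a further background. Of 117 other tested genes named Ccdc with a number, 39 fell (33.3%) and 7 rose in Kpna6 ΔIBB/ΔIBB against WT, with a median of -0.10 that became 0.01 on the log2(TPM + 1) scale. The lowest were Ccdc190 (-0.86 ± 0.21), Ccdc183 (-0.70 ± 0.07) and Ccdc116 (-0.70 ± 0.05), so that Ccdc187 at -1.05 lay below the whole family. The places of Ccdc187, Lrrc57 and 4930412O13Rik in this paragraph are descriptions, because the 8 genes were selected on this fall. Of 44 other Lrrc genes 16 fell (36.4%) and 5 rose, with a median of -0.14 that likewise became 0.01 on the log2(TPM + 1) scale. Lrrc66, Lrrc52 and Lrrc7 were lowest, at -0.98 ± 0.25, -0.85 ± 0.09 and -0.75 ± 0.19, and Lrrc57 at -0.79 came between the last 2. Of 254 tested genes with clone prefixes of 3 adult testis libraries, among them those of the 3 RIKEN genes studied here, 154 fell (60.6%) and 11 rose, and of 235 with other prefixes, some of them also from testis, 61 fell and 28 rose. These counts moved with the scaling. With library size alone the first RIKEN set had 112 lower and 13 higher, the second 42 lower and 47 higher, the Ccdc genes 27 lower and 20 higher and the Lrrc genes 14 lower and 9 higher. With limma on log2(TPM + 1) they had 75 and 12, 24 and 23, 14 and 8, and 5 and 5, in the same order. The lowest of the first set were 4930447A16Rik (-1.64 ± 0.42), 4933402D24Rik (-1.01 ± 0.15) and 4930595D18Rik (-0.99 ± 0.18), and 4930412O13Rik at -1.08 lay below the latter pair. The lowest of the second set were 9530003J23Rik (-1.45 ± 0.44), 4921508M14Rik (-1.38 ± 0.19) and 9230102O04Rik (-1.19 ± 0.10). In Kpna6-/- against WT 1 of the 117 Ccdc genes fell and 0 rose, and of the 254 genes 1 fell and 1 rose.

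The genes most like each of the 8 were sought by the root mean square difference of log2 CPM (counts scaled to the library), each gene centred on its mean over the 9 testes, among 16710 genes with a mean of at least 1 TPM. A value of 0.1 means that 2 genes differed by about 0.1 log2 units in a typical testis. Of the 24 places, 3 for each gene, 7 were taken by 6 of the 8 genes themselves, which is a description since the 8 were chosen for a shared pattern. Eya4 and Ccdc187 were each other's close match (0.089), as were Ccdc54 and Ccdc91 (0.033) and 1700034I23Rik and 1700016H13Rik (0.0424). Near Eya4 were also Adam34 (0.0931) and Adam21 (0.102), 2 genes of the ADAM family of membrane-anchored proteases. Both were also somewhat lower in Kpna6-/- than in WT, at -0.19 and -0.17 log2 units with adjusted p-values of 0.23 and 0.189, neither of which passed. Tex52 (0.0722) and 4933406M09Rik (0.0834) came nearest to Ccdc187 besides Eya4. For Lrrc57 the 3 nearest were Car2 (0.0472), a carbonic anhydrase, 1700012A03Rik (0.0543) and Prr9 (0.0627). Before the log 0.5 CPM was added, which shrinks the differences of genes with low counts. Prr9 was at 3.95 TPM in WT, and its log2 fold change of ΔIBB against WT was -1.04 ± 0.18, beside -0.79 for Lrrc57. Actl11 (0.0326) and Ubqlnl (0.0353) came near Ccdc91, and Dcun1d1 (0.036) and Bcl2l14 (0.0375) near Ccdc54. The likeness of Bcl2l14 holds for CPM. In TPM it was higher in Kpna6-/- testes (285 to 305) than in WT (243 to 256). For 1700034I23Rik it was Antxrl (0.0389), besides 1700016H13Rik and Ccdc54, and for 1700016H13Rik they were Tex43 (0.0404) and Hipk1 (0.0468). 4930412O13Rik was followed by Slc9a4 (0.0801), a sodium-proton exchanger, its overlapping partner 9230102O04Rik (0.0814) and Spata31d1b (0.0843). The genes in the 24 places gave 0 calls in Kpna6-/- against WT.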

How the data were processed

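RNA of whole testes was sequenced in 3 WT, 3 Kpna6 ΔIBB/ΔIBB and 3 Kpna6-/- mice. Poly(A) libraries were made with a NEBNext Ultra kit. The authors quantified reads on mouse transcripts with kallisto (version 0.45 in the submitters' processing notes) and deposited an estimated count and a TPM value per transcript. TPM is scaled to the same total in every library, and the estimated counts are not normalized between samples. Which transcript release they used is not given in the sources used here. Of 96626 transcripts, 95301 were assigned to 32035 genes of GENCODE M21 (GRCm38) and summed per gene, and 1325 were left out.

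Gene counts were rounded, filtered with filterByExpr, scaled by TMM and tested with edgeR 4.0.16 in R 4.3.3 (quasi-likelihood test, Benjamini-Hochberg over all genes, threshold 0.05), 3 testes against 3. Alternatives were DESeq2 1.42.0, limma 3.58.1 on log2(TPM + 1) or log2(TPM + 0.1), other filters, scalings and samples. Replicates are separate labelled samples, and the labels do not name the animals, so p-values measure the spread between these samples. Shared sequence was sought with blastn 2.17.0. The procedure was tested on simulated data. Members and gene lists were chosen with earlier results of these data known. Named are the 8 genes, Kpna6, the list genes, the 3 lowest of each naming family at 1 TPM or more in WT, 2 neighbours per side, 3 like genes each and transcripts with at least 5% of the gene TPM. 1 of the listed genes is not reported here. Other genes named were chosen after their values were seen.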

Additional observations from a re-analysis of the deposited data

How the results depend on the processing

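None of the 8 genes changed the direction of its fold change in either comparison with Kpna6 ΔIBB/ΔIBB under the alternatives run, and 0 of the 8 were called in Kpna6-/- against WT under each of them. The median log2 fold change of the 8 against WT (-0.74) was -0.64 with scaling by library size alone, -0.62 with limma on log2(TPM + 1) and on log2(TPM + 0.1), and -0.62 with limma on log2(TPM + 1) of genes with a mean of at least 1 TPM. Against Kpna6-/- it moved from -0.78 to -0.68 with scaling by library size alone and to -0.63 with the 3 limma fits, and lay between -0.80 and -0.74 when each testis was left out in turn, with the value nearest 0 without ΔIBB replicate 3. The 6874 genes called in Kpna6 ΔIBB/ΔIBB against WT became 4409 and 4437 with limma on log2(TPM + 1) and log2(TPM + 0.1). With TMM 3327 were higher and 3547 lower. With scaling by library size alone 5416 were higher and 2326 lower, and the median of all genes moved from 0.009 to 0.107. The 299 genes called in Kpna6-/- against WT became 624 without the filter on low counts, 71 with length-scaled counts, and fell to 19 by limma at a pseudocount of 1, to 38 at 0.1 and to 18 at 1 where the mean was at least 1 TPM. With each testis left out in turn they ran from 92, without Kpna6-/- replicate 1, to 518, without WT replicate 1, and the cause was not tested. Lists lost calls where samples or scaling changed: the 24 spermatid markers called lower were 21 with library size alone and 14 with limma on log2(TPM + 1). Replicate numbers did not pair the testes (correlations of deviations between -0.045 and 0.086). With a replicate block 6793, 229 and 6032 genes were called in the 3 comparisons, and the median of the 8 against WT was -0.74. Transcript shares in Kpna6-/- were recomputed without each testis, an alternative chosen after seeing the data, but with so few testes no p could pass, so this says nothing of their stability. The 3 testes per genotype limit the precision.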
